A study of Mus musculus with 55 samples.

Results

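The 8 genes described here, Acta2, Tagln, Myh11, Cnn1, Des, Dcn, Lum and Pdgfra, are usual markers of smooth muscle and stroma, the cells that surround the follicles of the ovary. They were chosen by name, out of 51734 genes in the count tables of 52 single mouse oocytes, to ask how much RNA of these cells was counted with each oocyte, by genotype and stage. All 8 were found in the tables. The libraries hold 18 wild-type fully grown oocytes (FGOs), 8 FGOs of each of 3 mutant genotypes, and 10 wild-type oocytes at metaphase II (MII), the stage after maturation.

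The Dnmt3L ADD/ADD genotype is homozygous for D124A in Dnmt3L with wild-type Dnmt3a, and the Dnmt3a ADD/ADD genotype is homozygous for the allele labelled ADA with wild-type Dnmt3L. The double mutant carries both. Each allele changes the ADD domain, the part of these DNA methylation proteins that reads unmethylated lysine 4 of histone H3. The alleles are constitutive, so the stroma, theca and granulosa cells of a mutant ovary carry them too. FGOs were taken from adult ovaries of 10 to 12 weeks by puncture, cleared of cumulus cells by washing in a capillary and pooled in medium before each was lysed. MII oocytes were flushed from the oviduct after hormone treatment and cleared of cumulus cells. The labels do not say which animal an oocyte came from, so the tests measure the spread between these oocytes.

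A growing follicle lies in a stroma of fibroblasts that secrete collagen and small proteoglycans, and is wrapped in a theca whose outer layer holds cells like smooth muscle. Smooth muscle cells contract through actin filaments (Acta2), smooth muscle myosin (Myh11) and their regulators calponin (Cnn1) and transgelin (Tagln), held by desmin filaments (Des). Fibroblasts make decorin (Dcn) and lumican (Lum), proteoglycans that bind collagen fibrils, and carry the PDGF receptor alpha (Pdgfra). None of these cells is part of an oocyte library by design. RNA made by the oocyte and RNA carried over from other cells cannot be told apart by a count, nor can fewer such cells and less RNA per cell.

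Total counts ran from 7832458 to 23739871 per library. By the study's read summary, under 80% of reads were mapped in 8 of 18 wild-type FGOs, 0 of 8 Dnmt3L ADD/ADD FGOs, 3 of 8 FGOs of the Dnmt3a ADD/ADD genotype, all 8 double mutant FGOs and 3 of 10 MII oocytes. Values within these classes are therefore given beside the results they touch. Of 14 oocyte genes (Zp3, Gdf9, Bmp15 and others), all 14 averaged over 1 CPM (the count scaled to library size, with totals adjusted by the trimmed mean of M values, TMM) in each of the 5 groups.

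The 8 genes fell into 2 sets. Myh11 and Cnn1 were counted at high level in every oocyte of every group, MII oocytes included, and together they made up between 96.0% and 99.8% of the summed CPM of the 8 genes. Lum, Tagln and Des were at 0 in many libraries, and Acta2, Dcn and Pdgfra lay at a few CPM or less. The 6 genes without Myh11 and Cnn1 are called the 6 low genes here, a choice made after the levels were seen. Per kilobase of exon, the wild-type FGO mean was 49.9 CPM for Myh11, 8.99 for Cnn1, 0.890 for Acta2, 0.198 for Pdgfra, 0.147 for Dcn, 0.104 for Tagln, 0.0689 for Des and 0.0323 for Lum. Among the 15726 genes that passed the filter on low counts, the per-length level of Myh11 lay at the 93.2 percentile, Cnn1 at 66.6, Acta2 at 25.98, Pdgfra at 6.49 and Dcn at 3.97. Myh11 and Cnn1 thus did not follow the low genes, since both were counted at high level also in the oocytes where Acta2 and Lum were at 0. The source of their RNA was not tested.

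**Figure D1:**
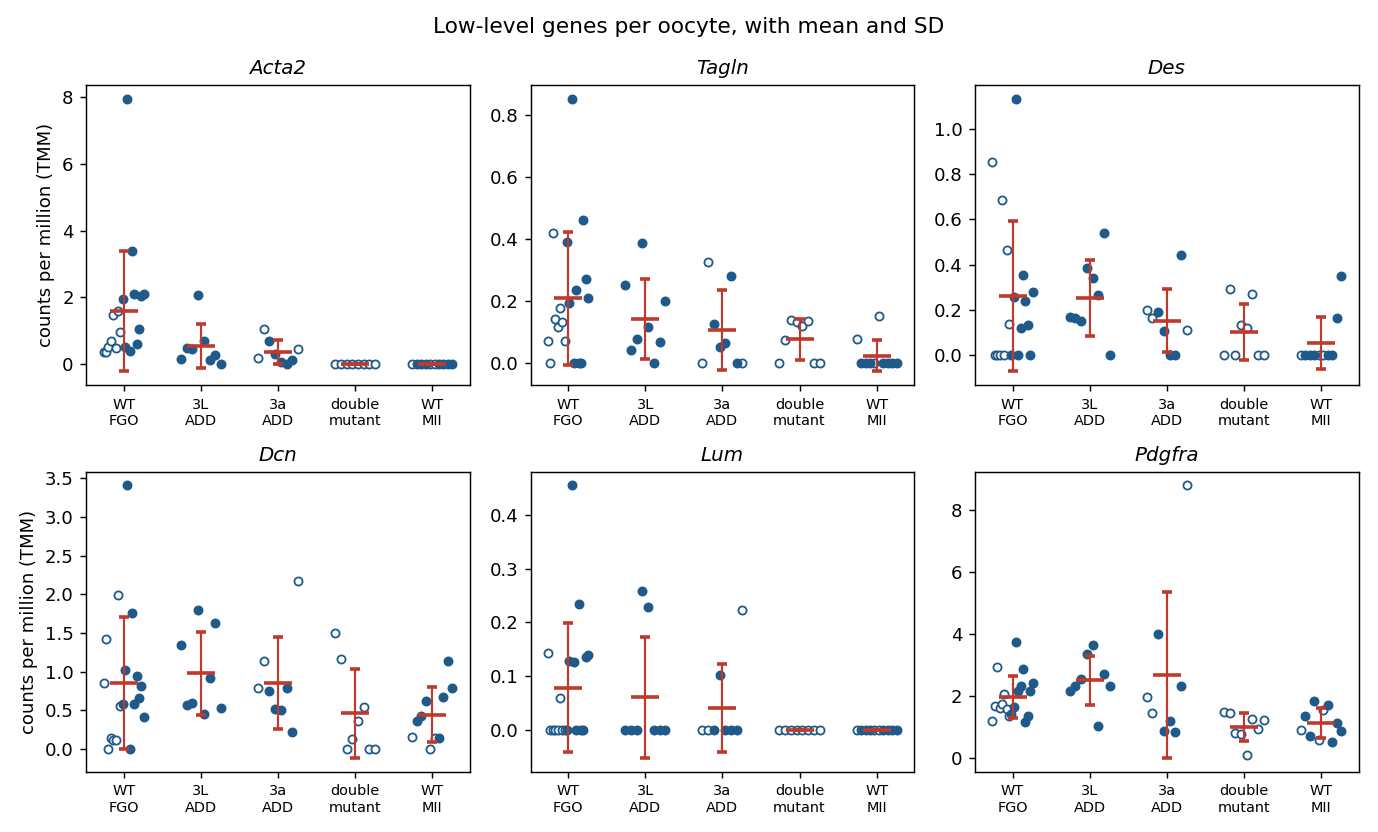
CPM (y axis, a scale of its own in each panel) of the 6 low genes in each oocyte, by group (x axis; WT, wild type; 3L ADD and 3a ADD, Dnmt3L and Dnmt3a ADD/ADD FGOs). Each point is 1 oocyte, open where under 80% of reads were mapped, with the mean and SD in red; Acta2 and Lum are at 0 in all 8 double mutant FGOs and all 10 MII oocytes, and 1 wild-type FGO is highest of its group in all 6 panels.

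Acta2, smooth muscle actin, was the member called most often. It lies on chromosome 19, 34241090 to 34255336, minus strand (mm10 coordinates of the files), with 1781 exonic bases and no overlapping gene. In the 18 wild-type FGOs its count was 4 at the lowest, 15 at the median and 140 at the highest. In the 8 Dnmt3L ADD/ADD FGOs it was 0, 5 and 16, and in the 8 Dnmt3a ADD/ADD FGOs 0, 4 and 13. All 8 double mutant FGOs and all 10 MII oocytes had 0 counts. Every wild-type FGO therefore held Acta2 reads, 7 of 8 FGOs of each single mutant did, and no double mutant FGO or MII oocyte did.

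In CPM, Acta2 was 1.58 ± 1.80 (SD, n = 18) in wild-type FGOs, 0.532 ± 0.656 (n = 8) in Dnmt3L ADD/ADD FGOs and 0.359 ± 0.360 (n = 8) in Dnmt3a ADD/ADD FGOs. The single mutants overlapped with wild type and with each other. Of the FGOs, 4 of 8 (Dnmt3L ADD/ADD) and 5 of 8 (Dnmt3a ADD/ADD) lay below the lowest wild-type FGO. The double mutant and MII ranges did not overlap with wild type. With up to 3 counts over a group taken as the most that 0 allows, Acta2 was at least 60.2-fold lower in double mutant FGOs and at least 66.6-fold lower in MII oocytes than the wild-type FGO mean. Against the wild-type FGOs of its own class of mapped reads (under 80%), the bound for the double mutant was 30.6-fold. For MII oocytes it was 9.74-fold under 80% (3 MII oocytes) and 66.2-fold at 80% or more (7). These bounds cover counting error only, not the spread between oocytes. Wild-type replicate 11, at 7.95 CPM against a group median of 1.01, raises the wild-type mean that they use.

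By edgeR's quasi-likelihood test over all genes (called at an adjusted p under 0.05 and a fold change over 2), the log2 fold change of Acta2 was -2.13 ± 0.63 (SE) in Dnmt3a ADD/ADD FGOs, adjusted p = 0.0200. In Dnmt3L ADD/ADD FGOs it was -1.71 ± 0.62, adjusted p = 0.0934, which missed the threshold. The adjusted p was 4.58e-05 for double mutant FGOs and 5.64e-07 for MII oocytes. Against the single mutants, comparisons added after the values were seen, it was 0.00239 (Dnmt3L ADD/ADD) and 0.00280 (Dnmt3a ADD/ADD) for the double mutant. Acta2 passed the filter on low counts mainly through wild-type FGOs, and double mutant FGOs and MII oocytes had no Acta2 counts. The comparisons of these groups could therefore only call Acta2 lower, and their p-values depend on that filter. With the class of mapped reads as a covariate the call against Dnmt3L ADD/ADD was lost (0.0766), the others of 25 alternatives staying under 0.05. The double mutant mean was at least 20.2-fold and 13.6-fold lower than those of the respective single mutants.

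The class of mapped reads moved with Acta2 in wild-type FGOs: 0.805 ± 0.496 CPM (n = 8) under 80% mapped, and 2.21 ± 2.23 (n = 10) at 80% or more. Against the 8 wild-type FGOs of its own class, with 4 to 26 counts each, the double mutant still passed (adjusted p = 0.00200). The Dnmt3a ADD/ADD call did not hold within the under 80% class, which has 3 Dnmt3a ADD/ADD FGOs (log2 fold change -0.50, adjusted p = 0.668). At 80% or more it was -3.16 (adjusted p = 0.0146), and there Dnmt3L ADD/ADD passed as well (-2.21, adjusted p = 0.0294). Without Dnmt3L ADD/ADD replicate 4, the highest of its group at 16 counts, Dnmt3L ADD/ADD also passed, at -2.35. Over all alternatives the adjusted p ran from 0.00563 to 0.668 for Dnmt3a ADD/ADD, from 0.0294 to 0.284 for Dnmt3L ADD/ADD and from 5.14e-11 to 0.00355 for the double mutant.

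The promoters shown are those of Acta2, whose counts differed by genotype and stage, and of Cnn1, counted in every oocyte (RefSeq, GRCm38.p6; 4 of the 8 genes had an entry, Acta2, Cnn1, Des and Pdgfra). Capitals mark a CArG box, the site of serum response factor, with 1 of its 6 middle letters G or C; the box reads alike on both strands. The Acta2 stretch, chr19:34255374-34255623, minus strand, ends where the RefSeq transcript starts, and the Cnn1 stretch, chr9:22099003-22099215, plus strand, ends where the first exon of the files starts.
Acta2: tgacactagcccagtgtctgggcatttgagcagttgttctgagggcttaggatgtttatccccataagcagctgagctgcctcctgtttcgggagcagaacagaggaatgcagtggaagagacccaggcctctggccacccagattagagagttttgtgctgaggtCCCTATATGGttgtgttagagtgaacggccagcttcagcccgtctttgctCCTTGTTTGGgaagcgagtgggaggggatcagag
Cnn1: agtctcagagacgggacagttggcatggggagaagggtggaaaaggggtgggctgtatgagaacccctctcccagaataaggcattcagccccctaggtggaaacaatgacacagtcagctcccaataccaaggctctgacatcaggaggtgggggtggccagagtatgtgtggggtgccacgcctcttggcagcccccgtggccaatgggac
Acta2 held 2 such boxes, beginning 84 and 34 bases before the start, and Cnn1, Des and Pdgfra held none in the 250 bases (213 for Cnn1) before theirs. Of all 32851 promoters, 8.59% held a box of this loose form and 1.47% one with all 6 middle letters A or T, which none of the 4 genes had.

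Tagln and Des, a regulator of actin filaments and the muscle intermediate filament, did not pass the filter and were not tested. Tagln ranged from 0 to 15 counts in wild-type FGOs (median 2.5) and was detected, with at least 1 count, in 14 of 18. It was detected in 7 of 8 FGOs of the Dnmt3L ADD/ADD genotype (at most 3 counts), in 5 of 8 Dnmt3a ADD/ADD FGOs (at most 5) and in 5 of 8 double mutant FGOs (at most 2). Of the MII oocytes 2 of 10 held it, with at most 2 counts. Des ranged from 0 to 20 counts in wild-type FGOs (median 2) and was detected in 11 of 18. It was detected in 7 of 8, 6 of 8, 4 of 8 and 2 of 10 libraries of the other groups in the same order, with at most 8, 4, 4 and 4 counts. For both genes the ranges of all groups overlapped with wild-type FGOs, and the lowest mean was in MII oocytes.

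The proteoglycan Lum was at 0 in most libraries. It was detected in 8 of 18 wild-type FGOs, with at most 8 counts, in 2 of 8 FGOs of each single mutant, and in none of the double mutant FGOs or MII oocytes. Its summed count was 23 in wild-type FGOs, 4 and 6 in the Dnmt3L and Dnmt3a ADD/ADD FGOs, and 0 in 111305290 and 130348403 summed counts of the double mutant and MII libraries. With 3 counts over the group as the floor, Lum was at least 3.00-fold and 3.32-fold lower there than in wild-type FGOs. These bounds cover counting error only, and wild-type replicate 11 alone held 8 of the 23 wild-type counts. Within the under 80% class, which holds all double mutant FGOs, wild-type Lum was 0.0252 CPM from 3 counts in 2 of 8 oocytes. That is below the floor of 0.0263 CPM, so no fold can be given for the double mutant within its class, nor for the 3 MII oocytes under 80%. At 80% or more the bound for MII oocytes was 3.66-fold. With no filter beyond 1 count, Lum (adjusted p = 0.0143), Tagln (0.0100) and Des (0.0496) were lower in MII oocytes by edgeR's quasi-likelihood test, in a fit that called 10.2% of 41174 genes. None of the 3 passed in an FGO comparison with no filter, where Lum had an unadjusted p of 0.00321 in double mutant FGOs against wild type (adjusted p = 0.0707).

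Dcn, the other proteoglycan, was more evenly spread. Its count ran from 0 to 60 (median 10) in wild-type FGOs, from 4 to 24 (median 14) in Dnmt3L ADD/ADD FGOs and from 2 to 39 (median 11) in Dnmt3a ADD/ADD FGOs. It ran from 0 to 20 (median 4) in double mutant FGOs and from 0 to 14 (median 5) in MII oocytes. In CPM the means were 0.855 ± 0.858 (n = 18), 0.982 ± 0.537 (n = 8), 0.860 ± 0.595 (n = 8), 0.462 ± 0.578 (n = 8) and 0.448 ± 0.358 (n = 10). All ranges overlapped. The log2 fold change against wild-type FGOs was -0.90 ± 0.61 in double mutant FGOs (adjusted p = 0.334) and -0.92 ± 0.55 in MII oocytes (adjusted p = 0.186), and neither passed. In Dnmt3L and Dnmt3a ADD/ADD FGOs it was 0.17 ± 0.56 and 0.02 ± 0.56 (edgeR adjusted p = 0.887 and 0.984). Unlike Lum, its neighbour 46985 bases away on chromosome 10, Dcn was counted in 5 of 8 double mutant FGOs and 9 of 10 MII oocytes.

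Pdgfra, the receptor that marks fibroblasts, was counted in all 52 oocytes. Its count ran from 17 to 66 (median 28.5) in wild-type FGOs, from 16 to 57 (median 33) in Dnmt3L ADD/ADD and from 15 to 158 (median 19.5) in Dnmt3a ADD/ADD FGOs. It was 2 to 20 (median 14) in double mutant FGOs and 6 to 24 (median 13) in MII oocytes. All 8 double mutant FGOs and 8 of 10 MII oocytes lay below the wild-type FGO median in CPM, and 4 and 6 of them below the lowest wild-type FGO.

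The Pdgfra mean was 1.98 ± 0.686 CPM (n = 18) in wild-type, 2.52 ± 0.786 (n = 8) in Dnmt3L ADD/ADD, 2.69 ± 2.68 (n = 8) in Dnmt3a ADD/ADD and 1.02 ± 0.453 (n = 8) in double mutant FGOs, and 1.14 ± 0.478 (n = 10) in MII oocytes. Against wild-type FGOs the log2 fold change was -0.97 ± 0.33 in double mutant FGOs (edgeR adjusted p = 0.0471) and -0.80 ± 0.29 in MII oocytes (0.0271). Both were under the 2-fold limit. In Dnmt3L and Dnmt3a ADD/ADD FGOs it was 0.33 ± 0.30 and 0.45 ± 0.30 (edgeR adjusted p = 0.548 and 0.320). For the double mutant the adjusted p was 0.0736 without wild-type replicate 11, and over all alternatives it ran from 0.0266 to 0.454, with 16 of 37 under 0.05. The MII value was under 0.05 in 34 of 40 alternatives and ran up to 0.334, within the under 80% class. It was 0.173 with the replicate block, 0.0506 without wild-type replicate 11, and 0.0512, 0.0534 and 0.0548 without MII replicates 3, 5 and 8. Against the single mutants the double mutant was called lower, by -1.30 ± 0.38 (Dnmt3L ADD/ADD, adjusted p = 0.0120) and -1.42 ± 0.38 (Dnmt3a ADD/ADD, 0.00433). The second fell to -0.82 (adjusted p = 0.0568) without Dnmt3a ADD/ADD replicate 8, whose 158 counts were the most of any oocyte. With the class of mapped reads as a covariate the first was -1.49 (adjusted p = 0.101); the groups are each of a single class, and not the same one.

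**Figure D2:**
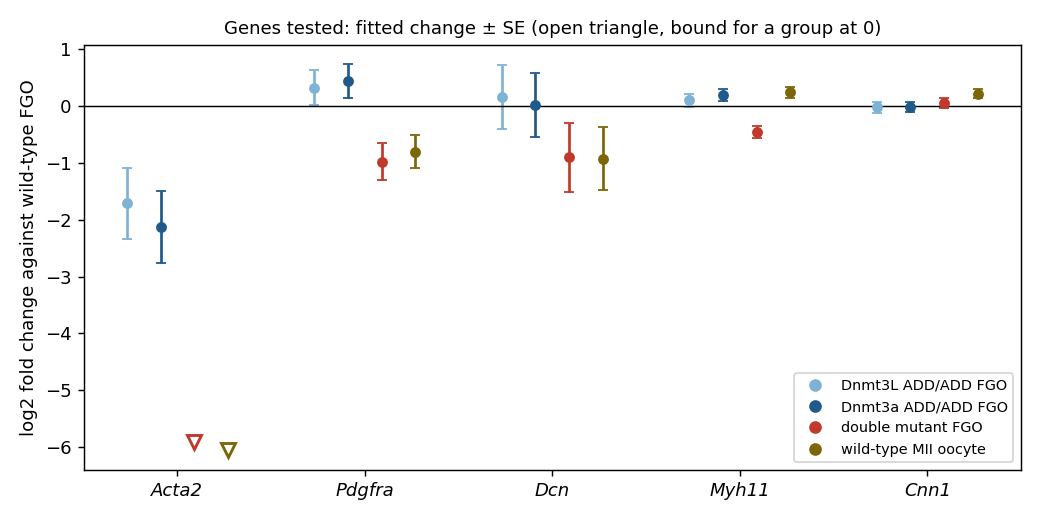
Log2 fold change against wild-type FGOs (y axis) of the 5 genes that passed the filter (x axis), by group (colour), with bars of 1 SE from edgeR's fit. Open triangles are bounds for Acta2, at 0 in double mutant FGOs and MII oocytes (-5.91 and -6.06). They set a floor of 3 counts over the group against the wild-type mean, and cover counting error only, not the spread between oocytes. Pdgfra lies below 0 in both groups, and Cnn1 lies between -0.02 and 0.22.

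Myh11, smooth muscle myosin, had between 2299 and 10580 counts in every oocyte. Its level was 331 ± 74.1 CPM (n = 18) in wild-type, 356 ± 68.3 (n = 8) in Dnmt3L ADD/ADD, 381 ± 41.7 (n = 8) in Dnmt3a ADD/ADD and 243.6 ± 25.997 (n = 8) in double mutant FGOs, and 391.9 ± 46.5 (n = 10) in MII oocytes. All 8 double mutant FGOs lay below the wild-type median, but only 1 below the lowest wild-type FGO. The log2 fold change was -0.45 ± 0.11 (adjusted p = 0.00818) in double mutant FGOs and 0.24 ± 0.09 (0.0362) in MII oocytes, both under the 2-fold limit.

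The wild-type FGOs parted by class for Myh11 with no overlap, at 215 to 316 CPM in the 8 libraries under 80% mapped and 326 to 445 CPM in the 10 others. Within the under 80% class, which holds all double mutant FGOs, the double mutant difference was -0.12 ± 0.09 (adjusted p = 0.701), against values from 0.00176 to 0.765 over all alternatives. For MII oocytes it was 0.39 (adjusted p = 0.0212) under 80% and 0.11 (0.387) at 80% or more.

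Cnn1, calponin, had 176 to 555 counts in every oocyte and had the group means closest together of the 8 genes. Its mean was 24.6 ± 3.91 CPM (n = 18) in wild-type, 24.3 ± 3.83 (n = 8) in Dnmt3L ADD/ADD, 24.4 ± 2.61 (n = 8) in Dnmt3a ADD/ADD and 25.7 ± 3.69 (n = 8) in double mutant FGOs. In MII oocytes it was 28.7 ± 2.62 (n = 10), a log2 fold change of 0.22 ± 0.08 (edgeR adjusted p = 0.0219, under the 2-fold limit). In the mutant FGOs the log2 fold changes were -0.02, -0.01 and 0.05, each with an SE of 0.09.

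**Figure D3:**
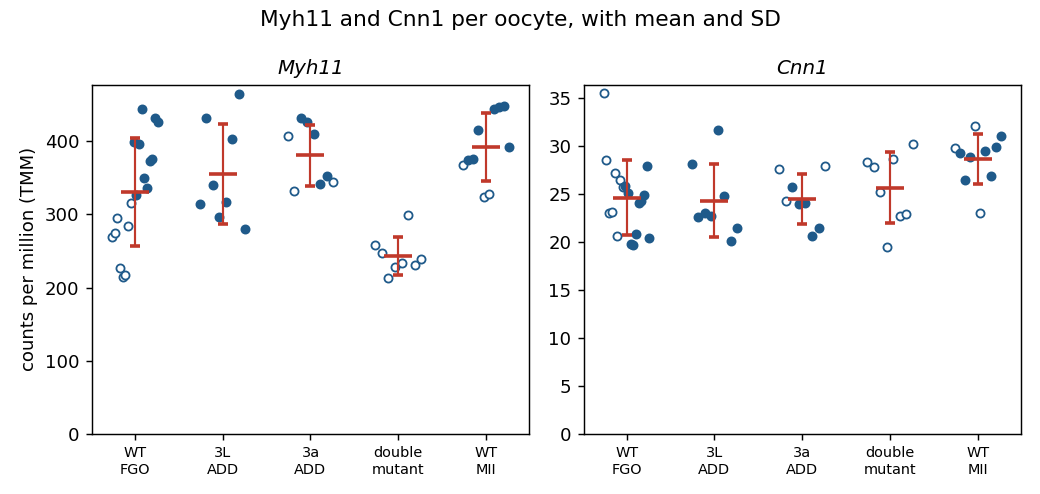
CPM (y axis, from 0) of Myh11 and Cnn1 in each oocyte by group (x axis), drawn as in the plot of the 6 low genes. Both genes are counted in every oocyte; the wild-type FGOs under 80% mapped (open) lie at 215 to 316 CPM for Myh11, below the others, and Cnn1 means lie between 24.3 and 28.7 CPM.

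Counted over the members, edgeR called 0 of the 5 tested in the Dnmt3L ADD/ADD genotype, where 0.655% of 15726 genes were called and where 1 member (Acta2) had an unadjusted p under 0.05; the exact test and DESeq2 also called 0. It called 1 of 5 in Dnmt3a ADD/ADD FGOs (2.05% of all genes) and 1 of 5 in double mutant FGOs (1.65%). In MII oocytes it called 1 of 5, where 9.2% of 15784 genes were called. Against the single mutants the double mutant had 2 of 5 called, with 4.03% (Dnmt3L ADD/ADD) and 5.86% (Dnmt3a ADD/ADD) of all genes. Acta2 was the member called in each of the 5 comparisons with a call, joined by Pdgfra in the last pair. All these calls were in the lower direction, in which 1.76%, 1.48% and 9% of all genes were called against wild type (Dnmt3a ADD/ADD, double mutant, MII) and 1.16% and 1.48% in the double mutant against Dnmt3L and Dnmt3a ADD/ADD. For Dnmt3L ADD/ADD that share was 0.591%. Acta2 passed the filter of 10 counts mainly through wild-type FGOs. Its median count was 15 there, 5 and 4 in Dnmt3L and Dnmt3a ADD/ADD FGOs, and 0 in the other groups. A gene at 0 in a group can only be called lower there, so the direction of those calls was set by the filter. At an adjusted p under 0.05 and any fold change, the members counted were 0 (6.13% of all genes), 1 (15.7%), 3 (12.2%) and 4 (39.1%) of 5 in the comparisons with wild type, and 3 of 5 in each of the other pair (24.2% and 30.9%). The comparisons with wild-type FGOs share their controls.

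Libraries held between 3 and 8 of the 8 genes. The mean number detected was 6.72 ± 1.02 (n = 18) in wild-type, 6.88 ± 0.991 (n = 8) in Dnmt3L ADD/ADD, 6.50 ± 0.926 (n = 8) in Dnmt3a ADD/ADD and 4.75 ± 1.39 (n = 8) in double mutant FGOs, and 4.30 ± 0.675 (n = 10) in MII oocytes. Thinned to 7832458 counts each, the means were 6.44, 6.5, 6, 4.5 and 4 in the same order, and with at least 4 counts asked for they were 5.61, 5, 4.88, 3.63 and 3.70.

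Summed over the 6 low genes, the level was 4.97 ± 3.44 CPM (n = 18) in wild-type FGOs, ranging from 2.62 to 17.6. It was 4.48 ± 1.83 (n = 8) in Dnmt3L ADD/ADD and 4.20 ± 3.33 (n = 8) in Dnmt3a ADD/ADD FGOs. It was 1.66 ± 0.939 (n = 8) in double mutant FGOs and 1.66 ± 0.610 (n = 10) in MII oocytes. Of the double mutant FGOs 6 of 8, and of the MII oocytes 10 of 10, lay below the lowest wild-type FGO. Within the under 80% class the wild-type mean was 3.67 ± 0.984 (n = 8). Summed over all 8 genes, where Myh11 prevails, the means were 361 ± 74.0, 385 ± 66.5, 409 ± 41.9, 271 ± 26.7 and 422 ± 47.2 CPM in the same order of groups. The wild-type mean of this sum was 292 ± 39.6 (n = 8) in the under 80% class, beside 271 in the double mutant FGOs, all of that class.

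The makeup of the 6 low genes is given by pooled counts, with no test and no scaling by length (1781 exonic bases for Acta2, 10024 for Pdgfra). Acta2 took 32.8% of their 1407 summed counts in wild-type FGOs, 10.46% of 459 in Dnmt3L ADD/ADD, 8.16% of 515 in Dnmt3a ADD/ADD and 0% of 186 in double mutant FGOs, and 0% of 210 in MII oocytes. Pdgfra took 39.0%, 58.0%, 64.5%, 60.8% and 68.6%, and Dcn 17.1%, 22.2%, 20.8%, 27.96% and 27.1%. A single oocyte held 140 of the 461 Acta2 counts of wild-type FGOs, and another 158 of the 332 Pdgfra counts of Dnmt3a ADD/ADD FGOs. What remained in double mutant FGOs and MII oocytes was mostly Pdgfra and Dcn.

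Wild-type FGO replicate 11 stood apart. It ranked first of 18 for each of the 6 low genes, with 7.95 CPM of Acta2 against at most 3.39 in the others, 3.41 of Dcn against at most 1.99 and 3.75 of Pdgfra against at most 2.93. Its rank was 5 of 18 for Myh11 and 17 of 18 for Cnn1. It also ranked first for the summed theca and interstitial markers (Star, Cyp17a1 and 5 others), at 147 CPM against at most 78.5. The collagen list holds the fibrillar collagens I, III and V and the microfibril collagen VI. Its sum is mostly Col6a3, at a mean of 56.0 CPM in wild-type FGOs. Replicate 11 ranked first for this sum too, at 91.6 against at most 84.3. For granulosa and cumulus markers it ranked second, at 438 CPM. Without it the summed low genes of wild-type FGOs averaged 4.23 CPM, and the 3 calls of Acta2 against wild type stayed (double mutant adjusted p = 3.36e-05, Dnmt3a ADD/ADD 0.0352, MII 3.22e-07).

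Dnmt3a ADD/ADD replicate 8 was the other such oocyte. It had 8.80 CPM of Pdgfra against at most 4.01 in the other 7, and 2.17 of Dcn against at most 1.14, but only 0.446 of Acta2 and no Tagln. Its collagen list summed to 152 CPM against at most 91.0, and its theca markers to 57.2 against at most 49.8. Of the 21 smooth muscle contractile genes, it was the highest of its group in 7 and above every wild-type FGO in 6. Among these were Mylk (5.51 CPM, against at most 4.37 in wild-type FGOs), Cald1 (7.30 against 5.23) and Smtn (2.56 against 1.92). Wild-type replicate 11 was the highest of its group in 6 of the 21.

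Across the 18 wild-type FGOs, each point 1 library with its own depth, the sum of the 6 low genes rose with the theca and interstitial sum (Spearman's rho 0.67, Pearson's r 0.88). Without the 2 oocytes farthest from the median these were 0.59 and 0.58, and within the classes rho was 0.81 (n = 8) and 0.81 (n = 10). With the collagen list rho was 0.61, but 0.10 under 80% mapped (n = 8) and 0.82 above (n = 10). That sum was mostly Col6a3, which averaged 56.0 CPM in wild-type FGOs and 54.6 in MII oocytes. It therefore says little of the other collagens. With granulosa and cumulus markers rho was 0.23, at 0.57 under 80% mapped (n = 8) and 0.14 above (n = 10). The granulosa and cumulus sum had a median of 355 CPM in wild-type FGOs and 325 in MII oocytes, though Amh and Inhbb were at 0 in the latter. A low rho with it therefore does not settle the relation to granulosa RNA. Between members, Acta2 and Pdgfra had a rho of 0.42, from -0.10 (n = 8) to 0.77 (n = 10) by class, and Acta2 and Cnn1 -0.23. The part of these markers in the levels of the 8 genes was not tested.

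**Figure D4:**
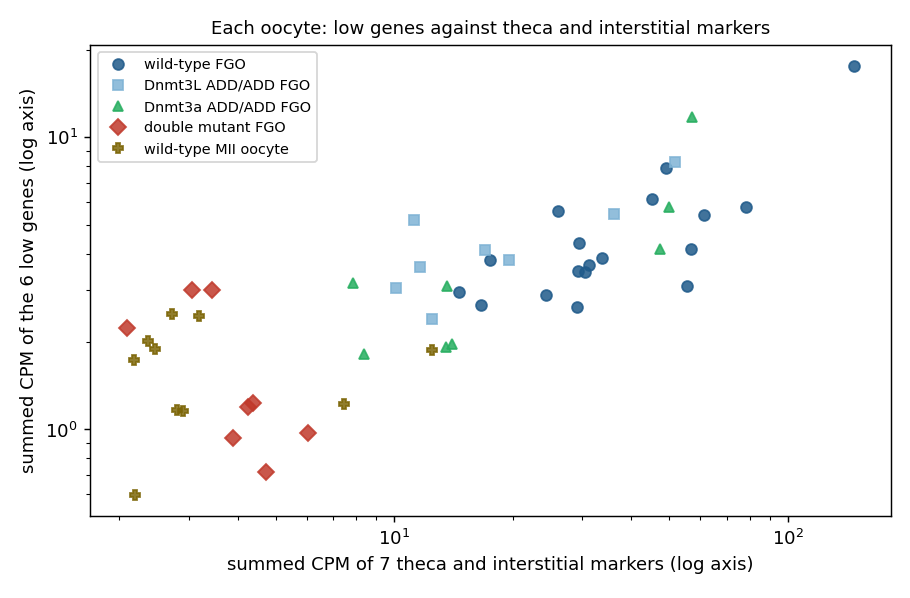
Summed CPM of the 6 low genes (y axis, log) against summed CPM of 7 theca and interstitial markers (x axis, log), 1 point per oocyte, by group. All double mutant FGOs and MII oocytes lie left of the lowest wild-type FGO (14.6 CPM of theca markers), and 1 wild-type FGO lies alone at the upper right (147 and 17.6 CPM).

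By the rule for likeness, the 5 genes whose levels most resembled the sum of the 8 genes over the 18 wild-type FGOs were Gpatch8, Gigyf2, Csnk1e, Nars and Eif4g3, with rho from 0.957 to 0.961. All are high in oocytes, at 125 to 431 CPM, and over the 24 mutant FGOs their rho ran from 0.24 to 0.85. The 5 most like the sum of the 6 low genes, a list added later, were Star (rho 0.81), Gm12928, Atp1b2, Sparc and Gm9144 (0.77). Star imports cholesterol for steroid synthesis, and Sparc is a collagen-binding matrix protein. Their rho over the mutant FGOs was 0.07 for Star and 0.56 for Sparc.

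Among the 21 genes of the smooth muscle contractile list (5 of them members), 15 were tested. In double mutant FGOs 6 were lower and 0 higher (median log2 fold change -0.84, against -0.01 over all genes), in MII oocytes 6 lower and 0 higher (-0.63, against -0.05), and in each single mutant 1 lower (Synpo2 in Dnmt3L ADD/ADD, Acta2 in Dnmt3a ADD/ADD). Besides Acta2, the tropomyosin Tpm2 (-2.03 ± 0.35) and the myosin light chain kinase Mylk (-1.42 ± 0.34) fell in double mutant FGOs, and Synm (-2.76 ± 0.39) and Mylk (-2.07 ± 0.32) in MII oocytes. Synm, an intermediate filament protein, was 0.995 ± 0.35 in double mutant FGOs against wild type (edgeR adjusted p = 0.0531) and was called higher there than in Dnmt3a ADD/ADD FGOs (1.53 ± 0.44, adjusted p = 0.00759). Myocd, the coactivator of serum response factor in smooth muscle, fell in MII oocytes too. Within the under 80% class 3 of the double mutant calls were found. Acta2 and Pln were at 0 in all double mutant FGOs and all MII oocytes.

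In the stromal fibroblast list of 20 genes (Dcn, Lum and Pdgfra among them), 11 were tested and 0 were called in any mutant FGO against wild type by edgeR's quasi-likelihood test, its exact test or DESeq2, though an unadjusted p under 0.05 was seen for 4 of them in the double mutant, 3 in Dnmt3L ADD/ADD and 5 in the Dnmt3a ADD/ADD genotype. Of these, Bgn (-0.82, edgeR adjusted p = 0.00345) and Pdgfra (-0.97, 0.0471) in the double mutant missed only the 2-fold limit. So did Bgn in Dnmt3a ADD/ADD FGOs (-0.59, edgeR adjusted p = 0.0203). Fbln1 alone was called lower in MII oocytes (-1.16 ± 0.32). Of the 6 genes of the collagen list tested in FGOs, 5 were lower in double mutant FGOs (median -4.10), with Col3a1 (-6.48 ± 0.95), Col6a2 (-4.06 ± 0.78) and Col6a1 (-4.15 ± 0.83) the lowest in p. In MII oocytes 5 of 7 were lower. Over all genes, 1.48% were called lower in double mutant FGOs and 9% in MII oocytes. Col3a1 and Col1a2 averaged only 0.0183 and 0.0342 CPM in double mutant FGOs. They passed the filter through other groups, so they could only be called lower there. In Dnmt3a ADD/ADD FGOs Col1a2 was higher, a call lost without replicate 8. All 5 theca and interstitial genes tested were lower in double mutant FGOs (Aldh1a1 -4.48 ± 0.54, Hsd3b1 -3.70 ± 0.47 and Cyp11a1 -4.03 ± 0.53 first) and in MII oocytes, and 2 of 5 in each single mutant (Cyp17a1 and Aldh1a1 in Dnmt3L ADD/ADD, Cyp11a1 and Star in Dnmt3a ADD/ADD). The summed theca markers ran from 14.6 to 147 CPM in wild-type FGOs, from 2.09 to 6.05 in double mutant FGOs and from 2.18 to 12.5 in MII oocytes. All 8 double mutant FGOs thus lay below every wild-type FGO of either class of mapped reads. The calls themselves set double mutant FGOs, all of the lower class, against wild-type FGOs of both classes. Calls within the class are not given here for the collagen and theca lists. Without wild-type replicate 11 the double mutant had 5 collagen, 6 contractile and 4 theca genes called.

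Of the other lists, 8 of 14 granulosa and cumulus genes tested were lower (Inha first, -3.46 ± 0.37) and Has2 higher in double mutant FGOs, 9 lower in MII oocytes, 2 lower in Dnmt3L ADD/ADD and 5 lower and Has2 higher in Dnmt3a ADD/ADD FGOs. Over all genes, 1.48% were called lower in double mutant FGOs, 9% in MII oocytes, 0.591% in Dnmt3L ADD/ADD and 1.76% in Dnmt3a ADD/ADD FGOs. Calls of granulosa and cumulus genes within a class of mapped reads are not given here. No gene of the pericyte (1 tested), endothelium and blood (3), surface epithelium (3), PDGF (5) or oocyte (14) lists was called in a mutant FGO against wild type. Under the 2-fold limit some genes of these lists had an edgeR adjusted p under 0.05. Among them, Pecam1 (0.0363) and Kdr (0.0372) were lower in double mutant FGOs. In Dnmt3a ADD/ADD FGOs Pecam1 (0.0142) and Tek (0.0305) were higher and Pdgfb (0.0319) lower. The oocyte list shifted as well. All 14 log2 fold changes were below 0 in each single mutant (Gdf9 -0.36 in Dnmt3a ADD/ADD, edgeR adjusted p = 5.73e-06). They were all above 0 in double mutant FGOs (Bmp15 0.30, edgeR adjusted p = 0.00436). All 8 double mutant FGOs were under 80% mapped and all 8 Dnmt3L ADD/ADD FGOs at 80% or more. Genotype and class therefore cannot be told apart between those groups. In MII oocytes Pdgfc, Pdgfd, Krt7 and the zona pellucida genes Zp2 and Zp3 were lower. Haemoglobin genes Hba-a1 and Hbb-bs were detected in only 1 and 2 of 18 wild-type FGOs, at no more than 0.0656 and 0.131 CPM. They were at 0 in the other groups, which have 8 or 10 libraries each. So few detections do not show a difference between groups.

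The levels of relatives of the members were compared per length. Among actins, Actb (38.2 CPM per kilobase in wild-type FGOs) and Actg1 (13.6) were far above Acta2 (0.890). The other smooth muscle actin, Actg2, had 4.72 ± 2.17, and unlike Acta2 it was counted in all 8 double mutant FGOs (2.64 ± 0.736) and all 10 MII oocytes (3.06 ± 1.19). Reads in stretches that actins share could be split between them, so the level of Acta2 is uncertain to that degree. Cnn3 (61.6) was above Cnn1 (8.99), with Cnn2 at 0.0974. Myh11 (49.9) was above the non-muscle myosins Myh9 (28.3) and Myh10 (8.17).

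Desmin's relative Vim, an intermediate filament of mesenchymal cells, averaged 0.472 ± 0.509 in wild-type FGOs and 0.0262 ± 0.0357 in double mutant FGOs. In MII oocytes it was 0.612 ± 0.982, at 0 in 5 of 10 and up to 2.20, unlike Acta2 and Lum. Among the proteoglycans, Prelp (11.1) was far above Bgn (0.973), Aspn (0.559), Ogn (0.554), Dcn (0.147), Lum (0.0323) and Fmod (0.00196). Prelp was counted in every oocyte, at 10.4 in double mutant FGOs and 14.3 in MII oocytes. Pdgfrb (0.0821) lay below Pdgfra (0.198), Tagln2 (0.131) and Tagln3 (0.0529) near Tagln (0.104), and Acta1 (0.0595) and Actc1 (0.00479) below Acta2.

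**Figure D5:**
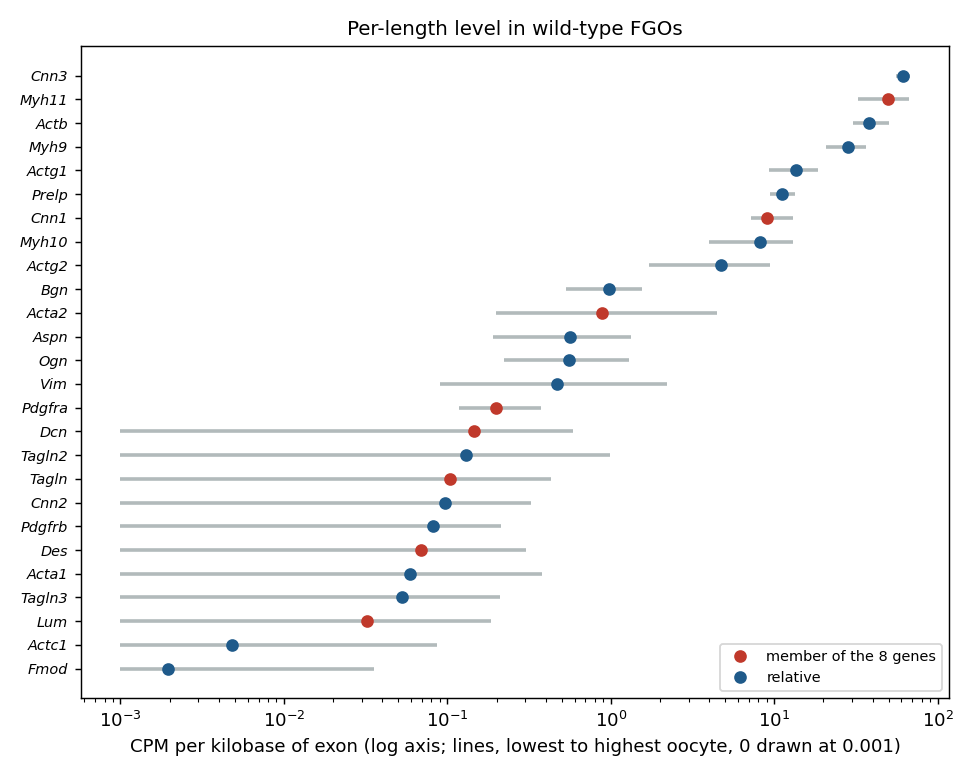
Mean CPM per kilobase of exon in the 18 wild-type FGOs (x axis, log) of the 8 genes (red) and their relatives (blue), 1 gene per line (y axis); grey lines run from the lowest to the highest oocyte, with 0 drawn at 0.001. Myh11 (49.9) and Cnn1 (8.99) lie among relatives such as Cnn3 (61.6) and Myh10 (8.17), and the other 6 members at 0.890 or below.

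Counting limits touch some members. Tagln (chromosome 9, 45929619 to 45936058) shares 1241 of its exonic bases, 62.4%, with AC122273.2 on the other strand and 5.43% with Pcsk7, and the kit does not mark strand, so such reads cannot be told apart. AC122273.2 had 0 to 7 counts per oocyte and Pcsk7 32 to 213. Des (chromosome 1, 75360329 to 75368579) shares 5.86% of its exonic bases with Gm15179, and Pdgfra (chromosome 5, 75152292 to 75198215) 4.55% with Gm42802, 1.66% with Gm42803 and 0.299% with Mir7025, each with at most 3 counts. Acta2, Myh11 (chromosome 16, 14194527 to 14291408), Cnn1 (chromosome 9, 22099216 to 22109630), Dcn (chromosome 10, 97479609 to 97518143) and Lum (chromosome 10, 97565128 to 97572703) overlap no other gene. Of the counts from 1 to 20 of the 6 low genes, 76.4% were even, against 64.5% of such counts over all genes. The cause was not tested. Whether 1 count stands for 1 read or for 1 read pair is not given in the sources used here, so the detection limit of 1 count and the floor of 3 counts refer to counts as deposited and not to fragments.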

How the data were processed

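Each oocyte was made into a library of its own (SMART-Seq HT, a kit that does not mark strand), and the authors deposited raw read counts per gene, from reads aligned to mm10 with STAR. The methods name featureCounts and HTSeq as counters without saying which made these tables. The annotation release and the treatment of overlapping genes are not given in the sources used here. The series' 3 double mutant embryo samples, with allele-resolved tables, were not used here.

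The test was edgeR's quasi-likelihood test (edgeR 4.0.16, R 4.3.3) after TMM scaling and filterByExpr (at least 10 counts), with Benjamini-Hochberg adjusted p-values, FGOs in 1 fit of 42 libraries (15726 genes, biological coefficient of variation 25.2%) and MII oocytes in 1 fit of 52 (15784 genes). Genes were called at an adjusted p under 0.05 and a fold change over 2. The fits were checked on simulated data. CPM were computed with TMM-scaled totals in Python 3.11.15. Alternatives included edgeR's exact test, DESeq2 1.42.0, other scaling and filters, the class of mapped reads, a replicate block and each library left out in turn. Every pair of oocytes in a group differed by more than sampling noise (lowest chi-square per degree of freedom 5.02).

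The members and lists were chosen with earlier results of these data known. Named beside the 8 members were their relatives and overlapping genes, the called list genes of lowest p (up to 3 per direction) and the 5 genes most like the sum of the 8 genes. Myocd, Pln, Cald1, Smtn and the haemoglobin genes were named after their values were seen, as were the double mutant comparisons with single mutants and the sum of the 6 low genes. Intervals and floors cover counting error only.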

Additional observations from a re-analysis of the deposited data

Results flagged for a closer look

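For each of the 8 genes and their sums, the highest and lowest oocyte of the groups of 8 and 10 were compared with their nearest neighbour by Dixon's gap ratio, and 8 of 36 tests picked out an oocyte far above the rest of its group; chance picks about 1 in 20 where values are normally distributed, which counts near 0 are not. Where several oocytes of a group tie at 0, no low one could be picked. In Dnmt3a ADD/ADD replicate 8, Pdgfra was at 8.80 CPM (at most 4.01 in the others), Dcn at 2.17 (at most 1.14), Lum at 0.223 from 4 counts (at most 0.103) and the sum of the 6 low genes at 11.8 (at most 5.76). Acta2 was at 2.06 CPM in Dnmt3L ADD/ADD replicate 4, from 16 counts, against at most 0.683 in the others.

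The remaining 3 rest on 4 counts or fewer. Des was at 0.443 CPM in Dnmt3a ADD/ADD replicate 7 and at 0.350 in MII replicate 10, each from 4 counts. Tagln was at 0.150 CPM in MII replicate 6, from 2 counts. The group of 18 wild-type FGOs was too large for this comparison, so replicate 11 is described with the results above.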

How the results depend on the processing

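Acta2 stayed lower and past the threshold in double mutant FGOs and MII oocytes under every alternative in which it was tested. A minimum count of 30 left it untested. With that filter the members called fell to 0 (Dnmt3a ADD/ADD, double mutant and MII against wild type) and to 1 against each single mutant. With no filter the MII comparison had 4 called. Without a minimum fold change 3 were called in double mutant FGOs and 4 in MII oocytes. Within the under 80% class the Dnmt3a ADD/ADD comparison had 0 and at 80% or more the Dnmt3L ADD/ADD comparison had 1. With the class as a covariate the double mutant against Dnmt3L ADD/ADD had 0. Leaving out 1 library gave 0 to 1 members called for Dnmt3L ADD/ADD, 1 to 2 for the double mutant against wild type, 1 to 2 against Dnmt3a ADD/ADD, and no change for the others. The libraries behind this were Dnmt3L ADD/ADD replicate 4, wild-type replicates 1 and 15 and double mutant replicates 1, 2 and 6 (Pdgfra passing the 2-fold limit), and Dnmt3a ADD/ADD replicate 8. With a detection limit of 4 counts the mean number of members detected was 5.61 in wild-type FGOs, 5 in Dnmt3L ADD/ADD FGOs and 4.88 in Dnmt3a ADD/ADD FGOs. The summed CPM of the 8 genes was 370 in MII oocytes under 80% mapped. The cause of these shifts was not tested, except where fewer genes or libraries entered.

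Small log2 fold changes changed sign. With library totals Dcn in Dnmt3a ADD/ADD was -0.0024. Under 80% mapped, Cnn1 was 0.019 (Dnmt3a ADD/ADD), -0.054 (double mutant) and -0.072 (double mutant against Dnmt3a ADD/ADD). At 80% or more, Dnmt3L ADD/ADD had Myh11 at -0.12, Cnn1 at 0.059 and Dcn at -0.094, and Dnmt3a ADD/ADD had Dcn at -0.84 and Pdgfra at -0.23. With the class as a covariate, Myh11 was -0.061 and Cnn1 0.061 in Dnmt3L ADD/ADD, Cnn1 0.0036 in Dnmt3a ADD/ADD and -0.046 in the double mutant, and -0.11 and -0.049 in the double mutant against Dnmt3L and Dnmt3a ADD/ADD. Leaving out 1 library moved Cnn1 from -0.085 to 0.017 (Dnmt3L ADD/ADD) and from -0.046 to 0.030 (Dnmt3a ADD/ADD), Dcn from -0.35 to 0.30 and Pdgfra from -0.15 to 0.57 (both Dnmt3a ADD/ADD).

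Replicate numbers did not pair the oocytes: same-numbered libraries of 2 groups deviated with correlations from -0.51 to 0.47. Wild-type numbers do follow the class of mapped reads: replicates 1 to 8 are the 8 under 80%, so the block sets mutants against those only. With the replicate block the Dnmt3a ADD/ADD comparison had 0 members called (Acta2 -1.33, adjusted p = 0.147, the range over alternatives being given with the results), the counts of the other comparisons did not change, and Cnn1 in the double mutant was -0.038. Depth limits Tagln, Des and Lum, which had at most 15, 20 and 8 counts in any oocyte.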
